A study of Mus musculus with 23 samples.

Results

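The 49 genes described here encode the enzymes and carriers of glutathione and thioredoxin redox control in the mouse ovary. They were chosen by symbol alone: the cytosolic and mitochondrial glutathione S-transferases (Gst), the microsomal transferases (Mgst), glutathione peroxidases (Gpx), peroxiredoxins (Prdx), thioredoxins (Txn), thioredoxin reductases (Txnrd), glutaredoxins (Glrx), both subunits of glutamate-cysteine ligase (Gclc and Gclm), the quinone reductase Nqo1 and the heme oxygenases Hmox1 and Hmox2. The 49 were taken from 24716 genes listed, and 48 of them were among the 20189 genes with enough reads to test; the exception was Gstm3, with a mean of 1.78 estimated counts per library. Polyadenylated RNA was sequenced from whole ovaries of untreated wild-type females of 3 inbred strains, C57BL/6J, CAST/EiJ and NZO/HlLtJ. From 6 weeks of age the mice ate fiber-supplemented food with either 10% fat or 44% fat, the latter also rich in sugar, and ovaries were taken at 15 weeks. There were 23 libraries: 4 for each strain and diet, except 3 for C57BL/6J at 10% fat. Nothing in the labels ties a library to its own animal, and the p-values below therefore cover the scatter of libraries only, part of which may be technical. The labels give no cycle stage, and fat cannot be told apart from sugar.

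Glutathione is a small thiol made in 2 steps, of which glutamate-cysteine ligase catalyses the limiting one. Glutathione S-transferases join it to reactive electrophiles, and glutathione peroxidases use it to reduce hydrogen peroxide and lipid peroxides. Peroxiredoxins reduce peroxides with electrons from thioredoxin, thioredoxin reductases and glutaredoxins keep protein thiols reduced, and NADPH feeds both systems. Many of these genes are known targets of the transcription factor NRF2 (Nfe2l2), which binds antioxidant response elements. In the ovary, steroid synthesis, ovulation and the regression of the corpus luteum are known sources of peroxides.

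Library totals lay between 31.9 M and 45.9 M estimated counts, and the 49 genes took between 0.318% and 0.647% of them. Levels are counts-per-million values (CPM) on TMM-scaled library sizes. Oocyte markers (10 genes, 150.6 to 680.9 summed CPM) and granulosa cell markers (10 genes, 1195 to 5214) were present in every library. Summed oviduct epithelium markers, of the tube beside the ovary, reached 5257 CPM in CAST/EiJ 10% fat replicate 2 and 270.0 CPM in C57BL/6J 44% fat replicate 1. Some, though not all, of the redox gene results that these libraries move are given without them as well. C57BL/6J 10% fat replicate 2 stood apart from its group, with 5214 summed CPM of granulosa markers against 1855 and 1963 in the other 2 libraries. In whole ovaries, more cells of a type and more RNA per cell cannot be told apart.

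Several members are near copies of each other, and their values depend on how reads were assigned. The sequences below are the starts of such pairs, Gstp1 with Gstp2 and Gsta1 with Gsta2, and of the less alike Gstm1 and Gstm2. They show how much a read has to tell each pair apart. Each is the first 90 coding bases, 5′ to 3′ on the coding strand, from GENCODE transcripts on GRCm38; capitals mark the bases that differ within the pair.
Gstp1: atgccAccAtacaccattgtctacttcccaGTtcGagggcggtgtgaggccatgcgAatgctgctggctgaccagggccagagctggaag
Gstp2: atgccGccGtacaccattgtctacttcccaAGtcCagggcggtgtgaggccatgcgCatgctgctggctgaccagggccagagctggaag
Gsta1: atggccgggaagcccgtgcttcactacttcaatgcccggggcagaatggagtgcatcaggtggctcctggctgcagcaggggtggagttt
Gsta2: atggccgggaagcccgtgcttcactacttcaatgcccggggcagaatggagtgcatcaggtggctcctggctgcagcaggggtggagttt
Gstm1: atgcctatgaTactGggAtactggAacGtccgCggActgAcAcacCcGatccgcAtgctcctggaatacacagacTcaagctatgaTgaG
Gstm2: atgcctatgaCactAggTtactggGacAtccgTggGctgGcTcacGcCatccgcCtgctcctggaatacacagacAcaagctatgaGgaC
Within these 90 bases Gstp1 and Gstp2 differ at 6 positions, Gstm1 and Gstm2 at 15, and Gsta1 and Gsta2 at 0. Over the whole coding sequence, identity was 98.1% for Gstp1 and Gstp2, 97.9% for Gsta1 and Gsta2 and 86.0% for Gstm1 and Gstm2. Of the stretches of 100 bases in the transcripts of Gsta1, 80.6% occur also in transcripts of another gene, chiefly Gm3776. That share was 46.9% for Gstp2 and 25.1% for Gstp1, 28.4% for Gsta2, 25.2% for Gpx4, 13.8% for Gstm3 and 10.8% for Gstt3, and 0 for 34 of the 49 genes. Values of these 7 genes are uncertain, more so between strains, whose own sequence differences can shift a read from one copy to the other. Whether reads of CAST/EiJ and NZO/HlLtJ were aligned to their own genomes is not given in the sources used here, and the part of alignment in the strain differences was not tested.

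Per kilobase of exon, the mu-class transferases Gstm1 and Gstm2 and the peroxidase Gpx3 had the highest mean levels over all libraries, and their order differed between strains. Gpx3, the glutathione peroxidase secreted into plasma and extracellular fluid, ranked first in both C57BL/6J groups, at 540 ± 233 and 464 ± 62.0 CPM per kilobase on 10% and 44% fat (SD, n = 3 and 4). It ranked between 5 and 14 in the 4 CAST/EiJ and NZO/HlLtJ groups. Gstm2 had rank 3 in both C57BL/6J groups and rank 2 in both CAST/EiJ groups, at 554 ± 155 and 676 ± 222 CPM per kilobase there, and ranks 9 and 7 in NZO/HlLtJ. In the CAST/EiJ and NZO/HlLtJ groups the highest level was that of Gstm1, which joins glutathione to many electrophiles, at 675 ± 172 and 822 ± 234 CPM per kilobase in CAST/EiJ and at 327 ± 72.4 and 277 ± 90.03 in NZO/HlLtJ (n = 4 each). Prdx1, the abundant cytosolic peroxiredoxin, had rank 4 in the C57BL/6J and CAST/EiJ groups and followed Gstm1 in both NZO/HlLtJ groups. In the C57BL/6J and NZO/HlLtJ groups the lowest levels were those of Gstm3, Gsta1, Gpx6, a peroxidase best known from the olfactory system, and Gsto2, an omega-class transferase.

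**Figure D1:**
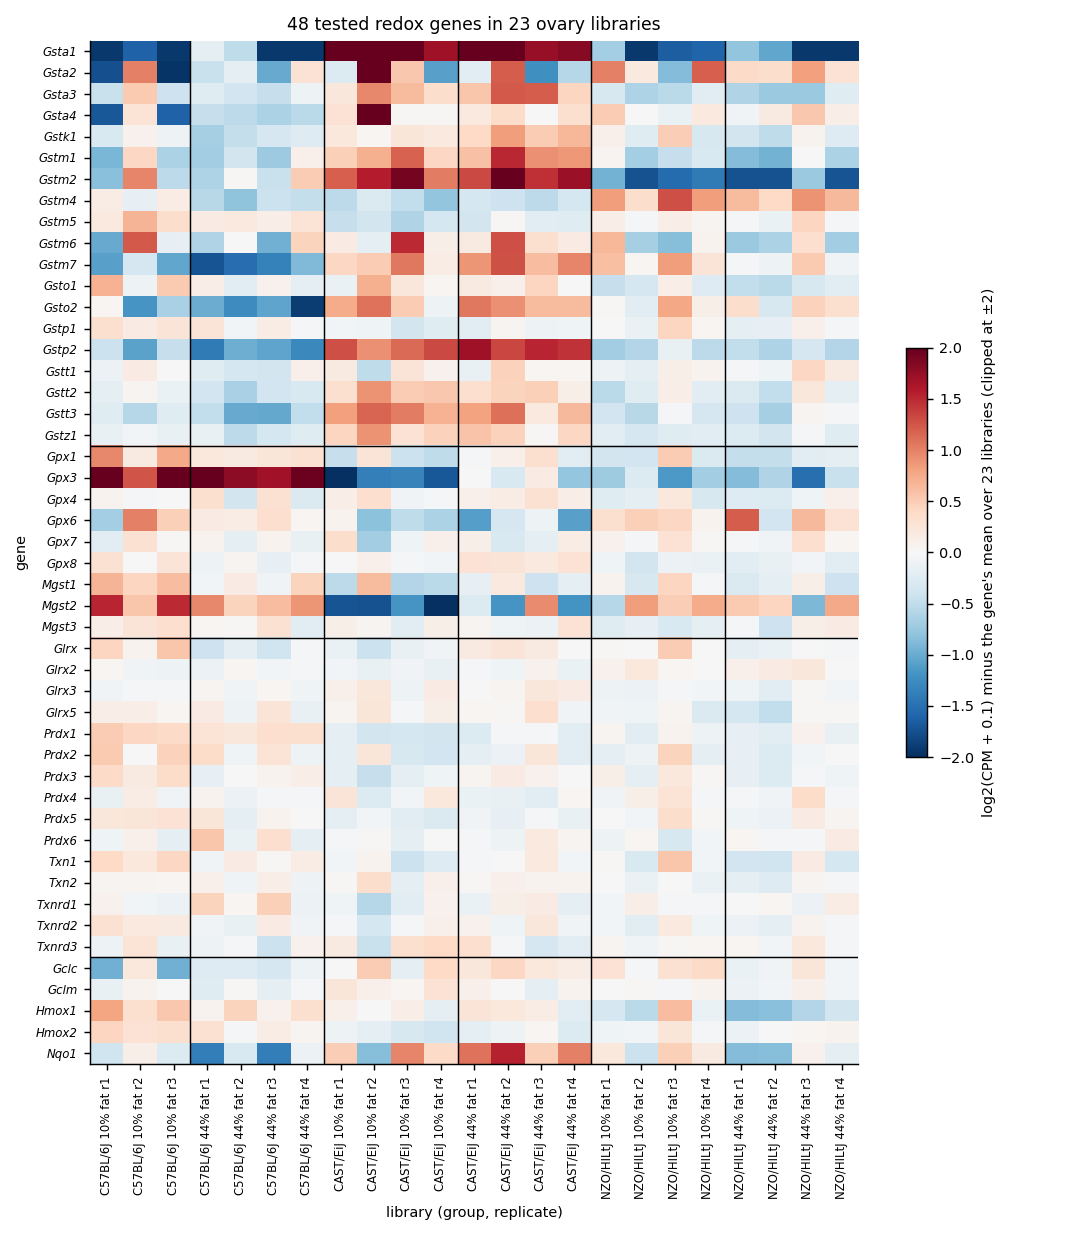
Each row is a tested redox gene and each column a library (r1 to r4 are replicates); color gives log2(CPM + 0.1) minus the gene's mean over 23 libraries, clipped at 2 in both directions, and black lines part the 6 groups and the 4 gene families. The CAST/EiJ columns are red in most glutathione S-transferase rows, and the C57BL/6J columns are red for Gpx3.

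Summed by family, the glutathione S-transferases of CAST/EiJ gave 1938 to 4013 CPM, above the 800.6 to 1933 CPM of the other 2 strains. The microsomal transferases and peroxidases gave 1300 to 2342 CPM in C57BL/6J and 576 to 916 CPM in the other 2 strains, again without overlap. Peroxiredoxins, thioredoxins and glutaredoxins lay between 1333 and 1964 CPM in all 23 libraries. Over all 49 genes the sum was 3100 to 4075 CPM in NZO/HlLtJ, 4437 to 5426 in C57BL/6J and 4228 to 6766 in CAST/EiJ.

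**Figure D2:**
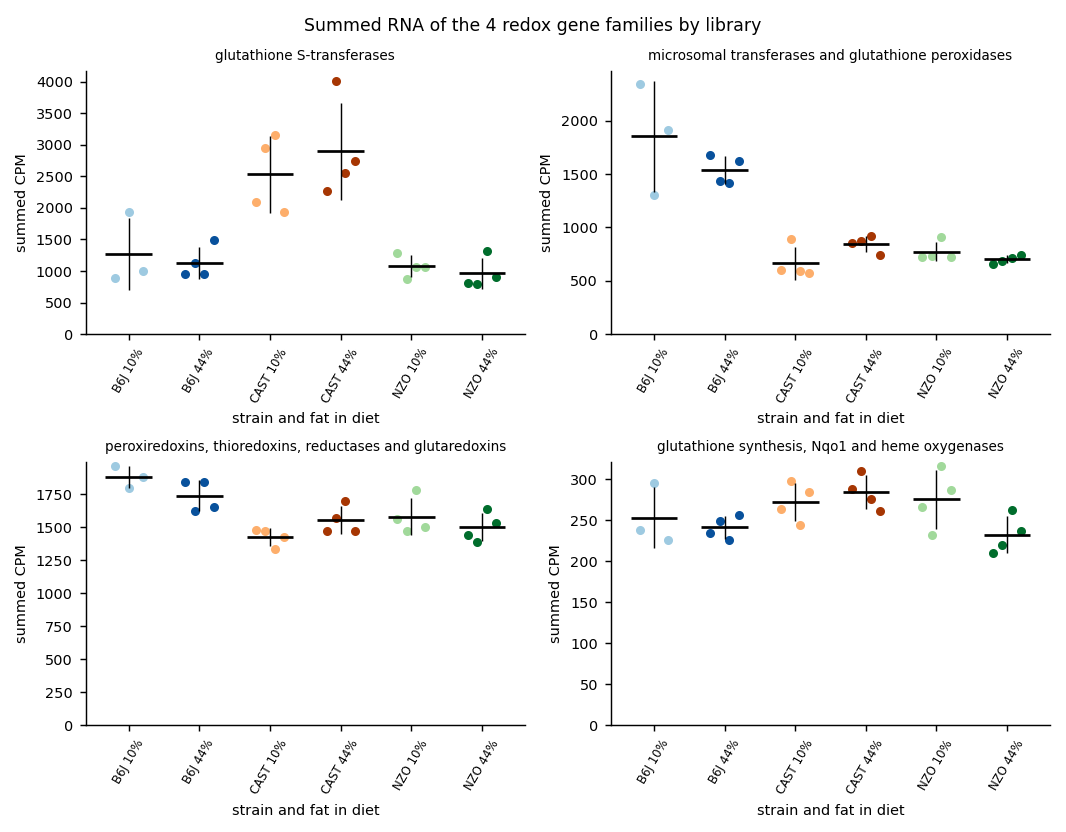
Each point is a library's summed CPM over the genes of a family, with the group mean (wide bar) and SD (vertical line); B6J, CAST and NZO stand for C57BL/6J, CAST/EiJ and NZO/HlLtJ and the percentage for the fat in the diet. The CAST/EiJ libraries are the highest for glutathione S-transferases, and the C57BL/6J libraries for microsomal transferases and peroxidases.

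Strain differences, averaged over the diets, were tested with edgeR's quasi-likelihood test with Benjamini-Hochberg adjustment over all 20189 genes; called means an adjusted p under 0.05. Between CAST/EiJ and C57BL/6J 28 of 48 members were called, 16 higher and 12 lower in CAST/EiJ, beside 46.8% of all genes tested (23.2% higher and 23.6% lower). Between NZO/HlLtJ and C57BL/6J 16 members were called, 6 higher and 10 lower in NZO/HlLtJ, beside 23.9% of all genes (11.6% higher and 12.3% lower). Between NZO/HlLtJ and CAST/EiJ 26 members were called, 8 higher and 18 lower in NZO/HlLtJ, beside 48.1% of all genes (23.4% higher and 24.8% lower). The members' shares, 58.3%, 33.3% and 54.2%, were not far above the background, and their median log2 fold changes of 0.02, -0.10 and -0.10 lay beside 0.01, 0.00 and -0.02 over all genes. In all, 37 members were called in at least 1 strain comparison and 5 in all 3, namely Gstm2, Gstm7, Gstp2, Prdx1 and Hmox2. How many of all genes were called in at least 1 or in all 3 was not counted, so these numbers have no background beside them. These comparisons share libraries and are not independent of each other. The 11 called in none were Glrx, Gpx7, Gsta2, Gstm6, Gstt1, Prdx4, Prdx6, Txn1 and the 3 thioredoxin reductases Txnrd1, Txnrd2 and Txnrd3.

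**Figure D3:**
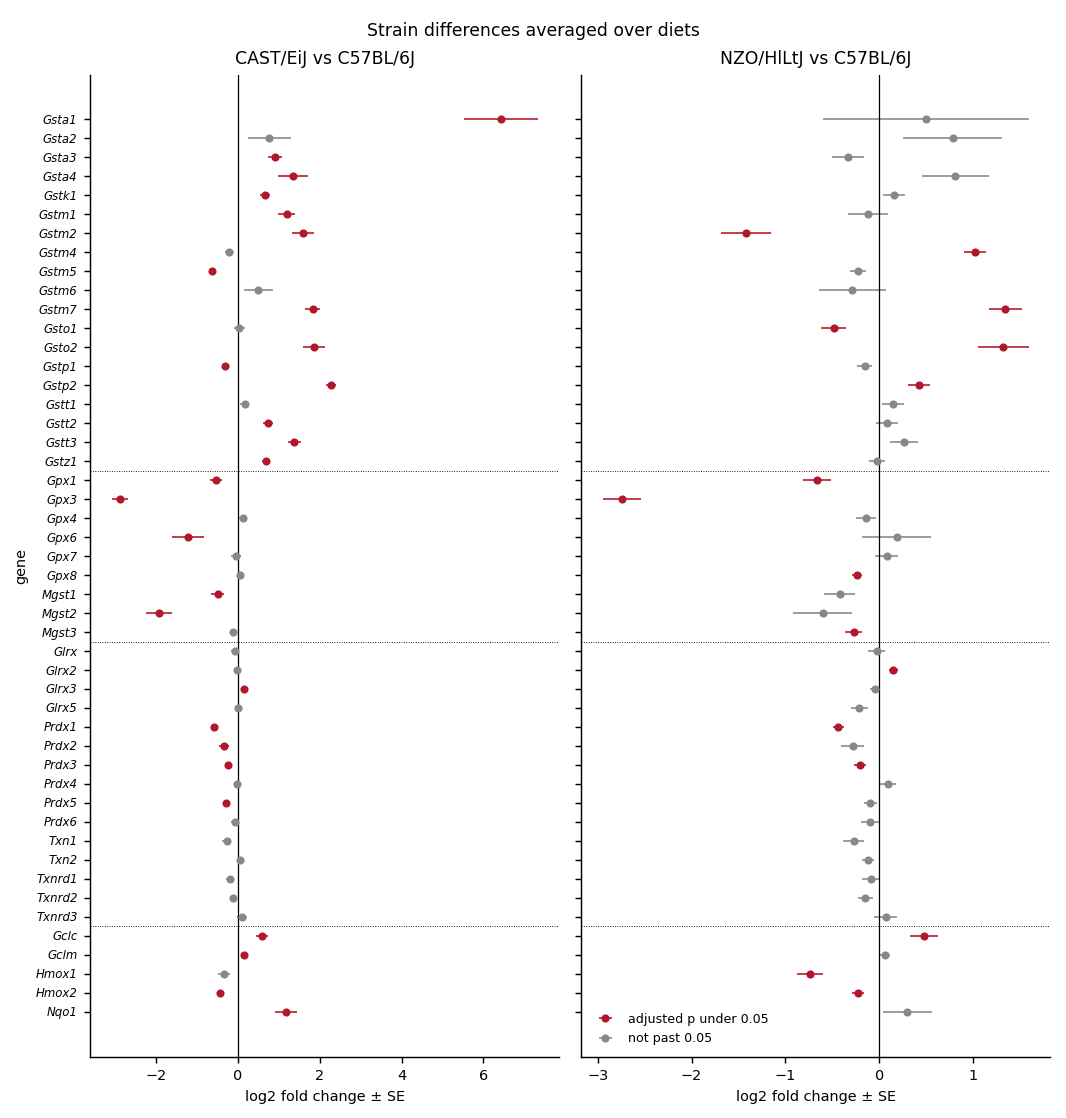
Points are log2 fold changes of the 48 tested redox genes averaged over diets, with lines of 1 SE, for CAST/EiJ against C57BL/6J (left) and NZO/HlLtJ against C57BL/6J (right), whose axes have different ranges; red marks an edgeR adjusted p under 0.05. Most glutathione S-transferases lie to the right on the CAST/EiJ side, and Gpx3 is the member farthest to the left in both panels.

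The calls are given here by family; no difference between families was tested. Of the 19 glutathione S-transferases tested, 12 were higher and 2 lower in CAST/EiJ than in C57BL/6J, with a median log2 fold change of 0.77; 23.2% of all genes were higher and 23.6% lower. Of 9 microsomal transferases and peroxidases, 0 were higher and 5 lower (median -0.50). Of 15 peroxiredoxins, thioredoxins, reductases and glutaredoxins, 1 was higher and 4 lower (-0.07), and of the 5 genes of glutathione synthesis, Nqo1 and heme oxygenases, 3 were higher and 1 lower (0.16). In NZO/HlLtJ against C57BL/6J the counts in the same order were 4 higher and 2 lower, 0 and 4, 1 and 2, and 1 and 2. In NZO/HlLtJ against CAST/EiJ they were 2 and 11, 2 and 2, 3 and 3, and 1 and 2. Markers of other cell types differed between CAST/EiJ and C57BL/6J as well. Of 10 white adipocyte markers 9 were higher in CAST/EiJ (median log2 fold change 3.97, sums 88.5 to 1347 CPM against 63.1 to 138 CPM). The 1347 CPM belonged to CAST/EiJ 10% fat replicate 2, the library highest in oviduct markers. The next highest CAST/EiJ sum was 441 CPM, in 44% fat replicate 1, and marker calls were not repeated without single libraries. Of 8 theca and stroma markers 4 were higher and 1 lower, and of 10 macrophage markers 1 was higher and 6 lower. Their part in the strain differences of the redox genes was not tested.

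Gstp2, the lesser of the pair of pi-class transferases shown above (ENSMUSG00000038155, chromosome 19, 4040285 to 4042236, on GRCm38 like all positions here), was several times higher in CAST/EiJ. In C57BL/6J it stood at 4.91, 3.12 and 4.81 CPM on 10% fat and at 2.43, 3.33, 3.13 and 2.64 CPM on 44% fat. In CAST/EiJ it stood at 16.4, 12.5, 14.7 and 16.6 CPM and 21.8, 16.9, 19.1 and 18.1 CPM on these diets, and in NZO/HlLtJ at 4.07, 4.37, 5.99 and 4.58 CPM and 4.67, 4.299, 5.24 and 4.37 CPM. No CAST/EiJ library overlapped with a library of another strain. The mean was 17.02 ± 2.78 CPM in CAST/EiJ and 3.48 ± 0.993 CPM in C57BL/6J (SD, n = 8 and 7), with a log2 fold change of 2.27 ± 0.12 (SE; edgeR adjusted p of 5.21e-12). Against CAST/EiJ, NZO/HlLtJ was at -1.85 ± 0.11 (SE; edgeR adjusted p of 4.05e-11). The neighbouring Gstp1 went the other way, at 77.7 ± 6.86 CPM in CAST/EiJ and 95.3 ± 9.33 CPM in C57BL/6J, a log2 fold change of -0.31 ± 0.08 (SE; edgeR adjusted p of 0.00341). On the deposited variance-stabilised scale the CAST/EiJ difference of Gstp2 was 1.46 in limma. Since the genes share many stretches, the split between them is uncertain.

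The 7 mu-class genes lie side by side on chromosome 3, from Gstm5 at 107895821 to the end of Gstm4 at 108044894, and they did not move together. Gstm2 was highest in CAST/EiJ and lowest in NZO/HlLtJ, Gstm7 was lowest in C57BL/6J, and Gstm4 was highest in NZO/HlLtJ. Gstm2 (ENSMUSG00000040562, chromosome 3, 107981702 to 107986453) stood at 189, 657 and 233 CPM on 10% fat and 218, 341, 248 and 479.6 CPM on 44% fat in C57BL/6J. In CAST/EiJ it stood at 769, 996, 1267 and 686 CPM and 839, 1666, 924 and 1108 CPM, and in NZO/HlLtJ at 174, 99.9, 115 and 126 CPM and 101, 99.9, 202 and 101 CPM. Every CAST/EiJ library was above every other library, whereas the ranges of C57BL/6J and NZO/HlLtJ overlapped slightly. Its log2 fold change was 1.59 ± 0.28 (SE; edgeR adjusted p of 9.22e-05) in CAST/EiJ and -1.42 ± 0.27 (SE; edgeR adjusted p of 0.000611) in NZO/HlLtJ against C57BL/6J, and -3.01 ± 0.28 (SE; edgeR adjusted p of 2.93e-08) in NZO/HlLtJ against CAST/EiJ, an 8.07-fold gap.

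Gstm7 (ENSMUSG00000004035, chromosome 3, 107926334 to 107931817) stood at 27.1, 45.8 and 28.1 CPM and 17.3, 20.1, 22.5 and 31.3 CPM in C57BL/6J on 10% and 44% fat. The values were 77.2, 82.5, 120.2 and 63.9 CPM and 107, 139, 88.1 and 114 CPM in CAST/EiJ and 87.6, 59.4, 104 and 69.1 CPM and 56.4, 54.1, 82.7 and 54.8 CPM in NZO/HlLtJ. All C57BL/6J libraries lay below all others, with log2 fold changes of 1.82 ± 0.18 (SE; edgeR adjusted p of 9.42e-08) for CAST/EiJ and 1.35 ± 0.18 (SE; edgeR adjusted p of 1.25e-05) for NZO/HlLtJ. Gstm4 (ENSMUSG00000027890, chromosome 3, 108040408 to 108044894) stood at 12.2, 9.81 and 12.1 CPM and 7.47, 6.23, 8.16 and 7.84 CPM in C57BL/6J and at 7.62, 8.97, 7.75 and 6.31 CPM and 8.56, 8.26, 7.600 and 8.54 CPM in CAST/EiJ. In NZO/HlLtJ it reached 19.7, 14.1, 26.9 and 19.7 CPM and 17.1, 14.5, 20.5 and 17.3 CPM, above all libraries of the other strains, with log2 fold changes of 1.02 ± 0.12 (SE; edgeR adjusted p of 1.64e-06) against C57BL/6J and 1.23 ± 0.11 (SE; edgeR adjusted p of 1.89e-08) against CAST/EiJ.

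Of the other mu-class genes, Gstm1 was higher in CAST/EiJ as well. Its means were 479 ± 177, 1102 ± 303 and 445 ± 118 CPM in C57BL/6J, CAST/EiJ and NZO/HlLtJ (SD, n = 7, 8 and 8). Its log2 fold change was 1.19 ± 0.22 (SE; edgeR adjusted p of 0.000157) for CAST/EiJ against C57BL/6J, and -0.12 ± 0.21 with an edgeR adjusted p of 0.733 for NZO/HlLtJ. Gstm5 was lower in CAST/EiJ, at -0.63 ± 0.09 (SE; edgeR adjusted p of 6.32e-06), and an antisense gene overlaps 13.9% of its exon length. Gstm6 was called in no strain comparison. Gstm3 had 23, 12 and 6 estimated counts in all in the 3 strains and gives no comparison. Levels of Gstm1 and Gstm2 also varied within groups: C57BL/6J 10% fat replicate 2, the library highest in granulosa markers, had 797 CPM of Gstm1 and 657 CPM of Gstm2, against 318 and 389 CPM and 189 and 233 CPM in the other 2 libraries. The part of cell makeup in these levels was not tested.

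Among theta-class transferases, Gstt3 and Gstt2 were higher in CAST/EiJ and their neighbour Gstt1 was called in no comparison. Gstt3 (ENSMUSG00000001665, chromosome 10, 75774115 to 75781414) stood at 6.25, 5.004 and 6.31 CPM and 5.26, 3.64, 3.62 and 5.25 CPM in C57BL/6J on 10% and 44% fat. In CAST/EiJ it stood at 13.1, 16.8, 15.2 and 12.1 CPM and 13.1, 16.2, 8.497 and 11.7 CPM, and in NZO/HlLtJ at 5.68, 5.06, 7.21 and 5.87 CPM and 5.55, 4.65, 7.77 and 7.25 CPM. The CAST/EiJ libraries lay above all others, with a log2 fold change of 1.38 ± 0.15 (SE; edgeR adjusted p of 2.58e-07) against C57BL/6J. For Gstt2 it was 0.73 ± 0.12 (SE; edgeR adjusted p of 5.27e-05). Gstz1, the zeta-class enzyme of tyrosine breakdown, and Gstk1, the kappa-class enzyme of mitochondria and peroxisomes, were also higher in CAST/EiJ, at 0.67 and 0.66 (edgeR adjusted p of 4.07e-06 and 0.000137).

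Of the alpha-class transferases, which also act on lipid peroxides, Gsta1, Gsta3 and Gsta4 were higher in CAST/EiJ, and Gsta2 was called in no comparison. Gsta1 (ENSMUSG00000074183, chromosome 9, 78230656 to 78242684) was close to the detection limit outside CAST/EiJ: it had 18 estimated counts in 7 C57BL/6J libraries, 4 of them at 0, and 15 in 8 NZO/HlLtJ libraries, 3 of them at 0, against 968 in the 8 CAST/EiJ libraries. Its CPM were 0, 0.0245 and 0 and 0.236, 0.169, 0 and 0 in C57BL/6J, 1.97, 10.6, 3.03 and 1.13 and 1.73, 5.06, 1.18 and 1.25 in CAST/EiJ, and 0.138, 0, 0.0217 and 0.0262 and 0.121, 0.0866, 0 and 0 in NZO/HlLtJ, on 10% and 44% fat in turn. Every CAST/EiJ library was above every other library. The fitted log2 fold change of 6.43 ± 0.90 (SE; edgeR adjusted p of 8.03e-06) against C57BL/6J depends on how libraries at 0 are handled, and it was 1.24 on the deposited variance-stabilised scale and 5.91 without CAST/EiJ 10% fat replicate 2. With 80.6% of its stretches shared with other genes, the assignment of these reads is uncertain.

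Gsta4, which acts on the lipid aldehyde 4-hydroxynonenal, had its highest value, 459 CPM, in CAST/EiJ 10% fat replicate 2, the library with 5257 summed CPM of oviduct markers, and 74.2 to 95.9 CPM in the other CAST/EiJ libraries. The same library had the highest Gsta1 and Gsta2 values, 10.6 and 48.5 CPM. The difference of Gsta4 from C57BL/6J, 1.35 ± 0.37 (SE; edgeR adjusted p of 0.00488), was 0.79 without that library (edgeR adjusted p of 0.00799), and kept its call in all 29 alternative fits that gave it a value, with log2 fold changes of 0.79 to 1.83. Gsta3 was at 13.8 ± 3.84 CPM in CAST/EiJ, 7.27 ± 2.12 in C57BL/6J and 5.83 ± 0.882 in NZO/HlLtJ (SD, n = 8, 7 and 8), with 0.90 ± 0.17 (SE; edgeR adjusted p of 0.000175) between the first of these strains and C57BL/6J. Gsto2 was at 1.29 ± 0.328 CPM in CAST/EiJ, 0.887 ± 0.252 in NZO/HlLtJ and 0.355 ± 0.205 in C57BL/6J, with log2 fold changes of 1.86 ± 0.27 (SE; edgeR adjusted p of 1.23e-05) and 1.33 ± 0.27 (SE; edgeR adjusted p of 0.00116) against C57BL/6J, or 0.45 and 0.29 on the deposited variance-stabilised scale, where low levels are compressed.

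Gpx3 (ENSMUSG00000018339, chromosome 11, 54902453 to 54910377) had the largest decrease of all members against C57BL/6J in both other strains. C57BL/6J libraries held 1386, 543 and 1007 CPM on 10% fat and 979.9, 784, 724 and 880.3 CPM on 44% fat. CAST/EiJ libraries held 57.01, 88.1, 89.8 and 69.7 CPM and 225, 184, 254 and 133 CPM, and NZO/HlLtJ libraries 138, 188, 102 and 139 CPM and 124, 149, 79.2 and 166 CPM. The lowest C57BL/6J library was thus above the highest library of either other strain. Gpx3 was 7.38-fold lower in CAST/EiJ, a log2 fold change of -2.88 ± 0.21 (SE; edgeR adjusted p of 8.44e-10), and 6.70-fold lower in NZO/HlLtJ, at -2.74 ± 0.21 (SE; edgeR adjusted p of 5.47e-09). Summed markers of luteal cells, which make progesterone in the corpus luteum, were 11740 to 17460 CPM in C57BL/6J, 5978 to 8066 in CAST/EiJ on 10% fat, 11610 to 13930 in CAST/EiJ on 44% fat and 7855 to 11240 in NZO/HlLtJ. The part of luteal cells in the strain differences of Gpx3 was not tested.

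Mgst2, a microsomal transferase that can make the leukotriene LTC4, was lower in CAST/EiJ (ENSMUSG00000074604, chromosome 3, 51660360 to 51682677). It stood at 56.2, 28.97 and 55.1 CPM and 38.4, 26.7, 30.2 and 36.1 CPM in C57BL/6J on 10% and 44% fat. CAST/EiJ libraries held 5.87, 5.76, 8.57 and 3.55 CPM and 16.2, 8.597, 37.8 and 8.49 CPM, and NZO/HlLtJ libraries 13.1, 34.9, 27.7 and 32.9 CPM and 28.3, 26.3, 10.4 and 33.1 CPM. CAST/EiJ 44% fat replicate 3 alone reached the range of C57BL/6J. The log2 fold change was -1.93 ± 0.33 (SE; edgeR adjusted p of 6.8e-05) against C57BL/6J, and NZO/HlLtJ stood at 1.33 ± 0.31 (SE; edgeR adjusted p of 0.00166) against CAST/EiJ.

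Among the other peroxidases and microsomal transferases, Gpx1, the main cytosolic peroxidase, was lower in both strains, at -0.55 for CAST/EiJ and -0.66 for NZO/HlLtJ (edgeR adjusted p of 0.00479 and 0.00255). Mgst1, of the mitochondrial outer membrane and endoplasmic reticulum, was lower in CAST/EiJ, at -0.50 ± 0.17 (SE; edgeR adjusted p of 0.0197). Gpx6 was called lower as well, on 38 estimated counts in 8 CAST/EiJ libraries against 78 in 7 of C57BL/6J, and its difference of -1.23 was -0.16 on the variance-stabilised scale. Gpx8 and Mgst3 were lower in NZO/HlLtJ, at -0.24 and -0.27 (adjusted p of 0.00354 and 0.041 in edgeR); the call of Mgst3 was lost in 14 of 30 alternative fits. Gpx4, the selenoenzyme that reduces lipid peroxides within membranes, had 140.0 ± 25.5, 152 ± 14.6 and 127 ± 18.04 CPM in C57BL/6J, CAST/EiJ and NZO/HlLtJ (SD, n = 7, 8 and 8). It was called only between NZO/HlLtJ and CAST/EiJ, a call lost in 18 of 30 alternative fits. Gpx7, a peroxidase of the endoplasmic reticulum, was called in no comparison.

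**Figure D4:**
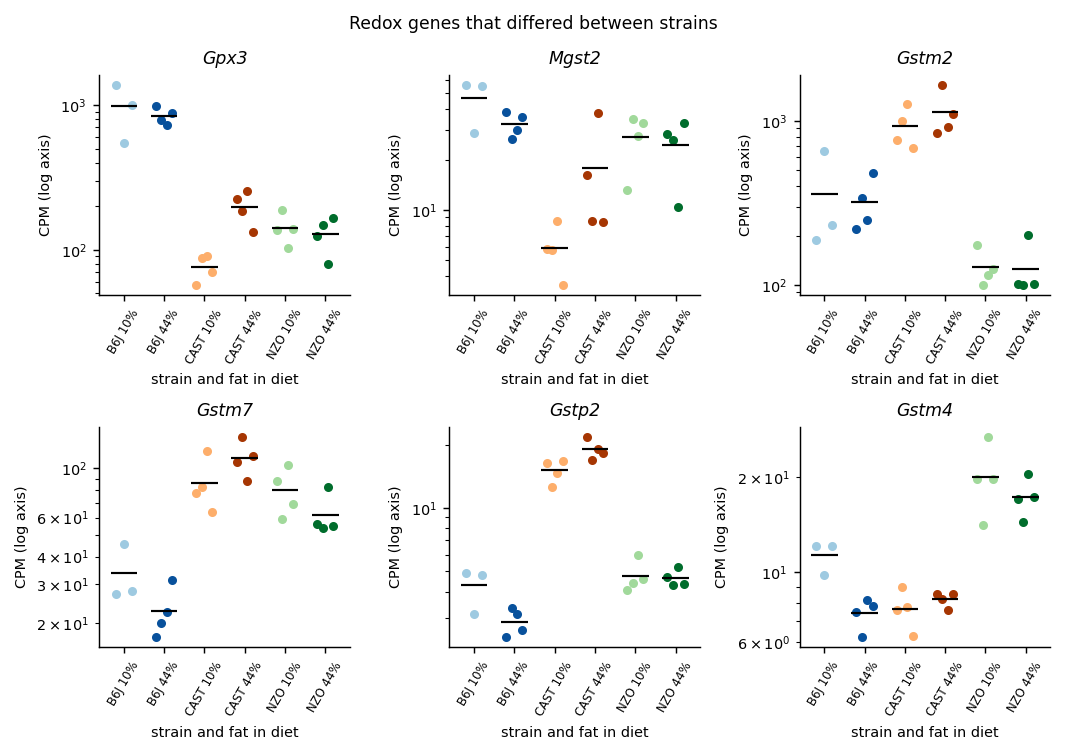
Points are libraries and bars group means of CPM, on log axes, for 6 redox genes in the 3 strains (B6J stands for C57BL/6J) on 10% and 44% fat. Gpx3 is highest in all C57BL/6J libraries, Gstm2 and Gstp2 in all CAST/EiJ libraries and Gstm4 in all NZO/HlLtJ libraries, and Gstm7 is lowest in C57BL/6J.

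Of the 15 genes on the thioredoxin side, 5 were called between CAST/EiJ and C57BL/6J and 3 between NZO/HlLtJ and C57BL/6J, shares of 33.3% and 20% that lay below the 46.8% and 23.9% of all genes. Prdx1 had the smallest p in both comparisons, at 534 ± 34.1 CPM in C57BL/6J, 358 ± 35.4 in CAST/EiJ and 397 ± 36.3 in NZO/HlLtJ (SD, n = 7, 8 and 8). All 7 C57BL/6J libraries lay above those of the other strains, and the log2 fold changes were -0.59 ± 0.06 (SE; edgeR adjusted p of 1.06e-07) and -0.44 ± 0.06 (SE; edgeR adjusted p of 1.62e-05). Prdx2, of the cytosol, and Prdx3 and Prdx5, of mitochondria, were also lower in CAST/EiJ, at -0.34, -0.24 and -0.29 (adjusted p of 0.0289, 0.00535 and 0.00164 in edgeR); the call of Prdx2 was lost in 9 of 30 alternative fits. An exon of Trmt112 on the other strand overlaps 19.1% of the exon length of Prdx5, and whether counting used strand is not given in the sources used here. Glrx3, a glutaredoxin that carries iron-sulfur clusters, was called higher in CAST/EiJ, at 0.14, a call lost in 12 of 30 fits. Txn1, the cytosolic thioredoxin, stood at 148 ± 18.4, 124 ± 15.9 and 124 ± 31.7 CPM in the 3 strains in the order above, with edgeR adjusted p of 0.0529 and 0.0853 against C57BL/6J. Txnrd1, its reductase, stood at 139 ± 25.2, 119.6 ± 18.3 and 128 ± 8.299 CPM.

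Of the genes of glutathione synthesis, Gclc, the catalytic subunit, was higher in CAST/EiJ at 0.58 ± 0.15 (SE; edgeR adjusted p of 0.0033) and in NZO/HlLtJ at 0.47 ± 0.15 (SE; edgeR adjusted p of 0.0251), the latter call lost in 3 of 30 fits. C57BL/6J 10% fat replicate 2 again differed from its group, with 138 CPM of Gclc against 60.6 and 61.0 CPM. Gclm, the modifier subunit, was called in CAST/EiJ at 0.16, lost in 15 of 30 fits. Nqo1 (ENSMUSG00000003849, chromosome 8, 107388225 to 107403206) stood at 5.38, 7.75 and 5.900 CPM and 2.68, 5.78, 2.68 and 6.53 CPM in C57BL/6J on 10% and 44% fat. Its values were 10.1, 3.89, 14.2 and 9.28 CPM and 15.3, 20.9, 9.96 and 14.5 CPM in CAST/EiJ and 8.25, 5.24, 9.92 and 8.04 CPM and 3.88, 3.92, 7.56 and 6.21 CPM in NZO/HlLtJ. CAST/EiJ was higher by 1.17 ± 0.27 (SE; edgeR adjusted p of 0.00127) than C57BL/6J, though the ranges overlapped through CAST/EiJ 10% fat replicate 2, the library highest in oviduct markers, without which the log2 fold change was 1.29.

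Hmox1, the inducible enzyme that breaks down heme, was lower in NZO/HlLtJ (ENSMUSG00000005413, chromosome 8, 75093591 to 75100596). It stood at 86.5, 62.7 and 73.3 CPM and 52.7, 68.6, 53.6 and 62.8 CPM in C57BL/6J on 10% and 44% fat. CAST/EiJ libraries held 54.03, 50.2, 54.9 and 43.9 CPM and 60.02, 58.2, 55.4 and 43.3 CPM, and NZO/HlLtJ libraries 39.98, 34.7, 77.2 and 45.8 CPM and 27.6, 28.2, 33.5 and 39.1 CPM. The log2 fold change was -0.74 ± 0.14 (SE; edgeR adjusted p of 0.000595) against C57BL/6J, with NZO/HlLtJ 10% fat replicate 3 alone within the C57BL/6J range. In the same comparison 6 of 10 macrophage markers were called lower (median -0.72; sums 293 to 479 CPM in NZO/HlLtJ and 398 to 841 CPM in C57BL/6J), as were 8 of 8 smooth muscle markers (median -0.93); their part was not tested. Hmox2, the constitutive enzyme, was lower in both strains, at -0.43 in CAST/EiJ and -0.23 in NZO/HlLtJ (edgeR adjusted p of 2.37e-05 and 0.0167). Exons of Cdip1 on the other strand overlap 40.2% of its exon length, so reads of these genes cannot be told apart if counting ignored strand.

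Of the 70 strain calls of members, 56 held in all 30 alternative fits, or all that gave a value, 14 were lost in at least 1 and 0 turned direction. Series of library identifiers (76, 82 and 90) cut across the strains, though the labels do not name them as batches. As a description of genes chosen by these same libraries, the called members had the same direction within each of the 3 series for 27 of 28 genes between CAST/EiJ and C57BL/6J, 14 of 16 between NZO/HlLtJ and C57BL/6J and 23 of 26 between NZO/HlLtJ and CAST/EiJ. Libraries did not overlap at all for 11, 4 and 9 members in these comparisons, 22.9%, 8.33% and 18.8% of them, beside 15.9%, 7.79% and 16.8% of all genes. For these members the direction within every series was thereby fixed and adds no support. The directions within series were not counted over all genes.

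Promoters were searched for the core of the antioxidant response element, TGACNNNGC, on both strands. The RefSeq windows ran from 250 bases before to 50 after each transcript start on GRCm38.p6, and some genes had several. Promoters of 44 members were matched, and Gclc, Gsta4, Gstt2, Hmox1 and Prdx6 were not. The core was found in at least 1 window of 7 of the 44, or 15.9%, beside 14.0% of 27025 genes. Counted by window it was in 7 of 64, beside 12.4% of 32851 windows. The matches are shown 5′ to 3′ on the gene's strand with 10 bases on each side, since they are the places where members carry letters of this element; capitals mark the fixed letters, read as TGAC and GC or, where the core lies on the other strand, as GC and GTCA.
Gclm (chr3:122245413-122245441): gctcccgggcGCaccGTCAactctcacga
Gsta3 (chr1:21240454-21240482): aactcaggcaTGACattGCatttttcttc
Gstm5 (chr3:107895802-107895830): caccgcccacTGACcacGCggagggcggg
Gstm7 (chr3:107931725-107931753): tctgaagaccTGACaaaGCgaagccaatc
Mgst1 (chr6:138140461-138140489): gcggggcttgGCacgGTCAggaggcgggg
Prdx1 (chr4:116685456-116685484): cagggaaagcGCtgaGTCAtcccccgtag
Txnrd1 (chr10:82859104-82859132): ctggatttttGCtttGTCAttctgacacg
Gstm7 lies on the minus strand and the other 6 on the plus strand. The matches of Gstm7 and Mgst1 lie within the spans of these genes, before inner transcript starts. Of the 7, Gclm, Gsta3 and Gstm7 were higher in CAST/EiJ than in C57BL/6J, Gstm5, Mgst1 and Prdx1 were lower and Txnrd1 was not called. A match to these letters is a description of the reference sequence and does not show that the site is used.

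Between diets, at most 1 member was called within a strain. In C57BL/6J 0 of 48 members were called between 44% and 10% fat in edgeR, as were 0% of all genes, with 11 of 48 members and 1783 of 20189 genes at an unadjusted p under 0.05. Values on 44% fat were lower for 40 members and higher for 8, with a median log2 fold change of -0.22 beside 0.01 over all genes. Macrophage markers were also lower in value, 9 of 10 of them with a median of -0.26 and 0 called, and their sums were 658 to 841 CPM on 10% fat and 398 to 632 CPM on 44% fat, without overlap; their part was not tested. Libraries of the diets did not overlap for 8 members, all lower on 44% fat: Gstm4, Gstt2, Gstz1, Glrx, Prdx1, Prdx3, Txn1 and Txnrd2. That is 16.7% of the members tested, beside 8.08% of all genes.

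Glrx, the cytosolic glutaredoxin that removes glutathione from proteins (ENSMUSG00000021591, chromosome 13, 75839868 to 75850151), had the smallest p of the members in C57BL/6J. It stood at 42.2, 32.9 and 46.1 CPM on 10% fat and 23.3, 27.2, 23.6 and 30.3 CPM on 44% fat, with a log2 fold change of -0.63 ± 0.13 (SE; edgeR adjusted p of 0.327). Gstm4 and Gstp2, whose values by library are given above, were next, at -0.61 and -0.57 with adjusted p of 0.335 and 0.395 in edgeR. DESeq2 called 1 member, Glrx, with an adjusted p of 0.0107. Leaving out C57BL/6J 10% fat replicate 2, the library that stands apart in granulosa markers, edgeR called 4: Glrx, Gpx8 and Gstp2 lower (adjusted p of 0.00944, 0.0332 and 0.0291) and Gclc higher (0.0267). For neither of these alternative fits were calls over all genes counted.

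In CAST/EiJ 1 of 48 members, Gpx3, was called between the diets and was higher on 44% fat, beside 0.624% of all genes (0.525% higher and 0.0991% lower). Its level rose from 76.1 ± 15.7 to 199 ± 52.7 CPM (SD, n = 4 each), a log2 fold change of 1.39 ± 0.27 (SE; edgeR adjusted p of 0.0219). The 4 libraries on 44% fat, with the values given above, all lay above the 4 on 10% fat. The direction within the identifier series 76, 82 and 90 was thereby fixed and adds no support. The highest of them, at 254 CPM, stayed below the lowest C57BL/6J library. The call was lost without CAST/EiJ 44% fat replicate 1, 2 or 3 (edgeR gave adjusted p of 0.0524, 0.0585 and 0.0646) and with the CAST/EiJ libraries alone (0.201), and DESeq2 gave 0.00011. Without both libraries highest in oviduct RNA the log2 fold change was 1.46 (edgeR adjusted p of 0.0442). The diet effect on Gpx3 was not shown to differ between CAST/EiJ and C57BL/6J, with a difference of 1.60 ± 0.39 (SE; edgeR adjusted p of 0.0617). Summed luteal markers moved with Gpx3, from 5978 to 8066 CPM on 10% fat to 11610 to 13930 on 44% fat, and summed macrophage markers from 335 to 448 CPM to 669 to 1825 CPM, each without overlap. Summed theca and stroma markers also parted, from 960.4 to 2034 CPM to 2638 to 2816 CPM, with 5 of 8 positive and 0 called. Oviduct markers were positive for 0 of 10 (median log2 fold change -2.61, 0 called, 8 at an unadjusted p under 0.05). Their highest sum, 5257 CPM, was that of 10% fat replicate 2. Of 10 macrophage markers 7 were called higher (9 positive, median log2 fold change 0.97), and of 10 luteal markers 1 was called higher (9 positive, median 1.13, 7 at an unadjusted p under 0.05); none of these sums was at 0, and their part in the change of Gpx3 was not tested.

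Of the other members in CAST/EiJ, Prdx3 and Mgst2 had the smallest p. Prdx3, the mitochondrial peroxiredoxin (ENSMUSG00000024997, chromosome 19, 60864051 to 60874556), stood at 118, 98.4, 118 and 127 CPM on 10% fat and 140.3, 151, 144 and 136 CPM on 44% fat, at 0.31 ± 0.09 (SE; edgeR adjusted p of 0.111). Mgst2 stood at 1.58 ± 0.45 (SE; edgeR adjusted p of 0.111), or 0.90 without CAST/EiJ 44% fat replicate 3, which held 37.8 CPM. DESeq2 called Prdx3, Mgst2, Gpx8 and Gpx3, all higher on 44% fat, and its calls over all genes were not counted. Values were positive for 34 of 48 members, with a median of 0.08 beside -0.02 over all genes. Libraries of the diets did not overlap for 6 members, Gstk1, Gstp2, Gpx3, Gpx8, Glrx and Prdx3, all higher on 44% fat; they make 12.5% of the members, beside 5.88% of all genes.

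In NZO/HlLtJ 0 members were called in edgeR, as were 0% of all genes, and 0 in DESeq2. In edgeR 1 member, Hmox1, and 710 of 20189 genes had an unadjusted p under 0.05. Hmox1 stood at -0.62 ± 0.19 (SE; edgeR adjusted p of 1), with values by library as above. Next came Prdx3, at 146, 119, 156 and 136 CPM on 10% fat and 121, 112, 131 and 127 CPM on 44% fat, a log2 fold change of -0.18 ± 0.09 (SE; edgeR adjusted p of 1). Txn1 held 132, 105, 190.0 and 124 CPM on 10% fat and 98.8, 97.7, 145 and 102 CPM on 44% fat, and its log2 fold change was -0.31 ± 0.15 (SE; edgeR adjusted p of 1). For all 3 genes the diets overlapped, and NZO/HlLtJ 10% fat replicate 3 was the highest of its group. In no member did the libraries of the diets part, beside 2.96% of all genes. Averaged over the strains, 0 members and 0% of all genes were called in edgeR, with 5 members and 1190 of 20189 genes at an unadjusted p under 0.05. The 3 smallest p were those of Gstm4, Hmox1 and Glrx, at -0.24, -0.28 and -0.17 (adjusted p of 0.795, 0.804 and 0.825 in edgeR).

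The diet response of 3 members, Glrx, Prdx3 and Gpx8, differed between CAST/EiJ and C57BL/6J, beside 0.614% of all genes (0.565% higher and 0.0495% lower). The value tested was the log2 diet effect in CAST/EiJ minus that in C57BL/6J. All 3 were higher on 44% fat in CAST/EiJ and lower in C57BL/6J in value, although none was called within a strain in edgeR. Over the 48 members this difference was positive for 38, with a median of 0.31 beside -0.04 over all genes, and 17 of 48 had an unadjusted p under 0.05, as had 3223 of 20189 genes.

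For Glrx the difference was 0.98 ± 0.18 (SE; edgeR adjusted p of 0.0238), from 40.4 ± 6.74 to 26.1 ± 3.32 CPM in C57BL/6J (SD, n = 3 and 4) and from 27.3 ± 2.85 to 34.9 ± 2.499 CPM in CAST/EiJ (n = 4 each). CAST/EiJ libraries held 28.4, 23.2, 28.3 and 29.6 CPM on 10% fat and 35.4, 37.3, 35.4 and 31.4 CPM on 44% fat, without overlap, as in C57BL/6J. NZO/HlLtJ libraries held 31.7, 30.97, 44.4 and 30.97 CPM and 27.3, 28.4, 31.3 and 30.8 CPM. Prdx3 went from 176, 153 and 174 CPM to 120.4, 136, 141 and 148 CPM in C57BL/6J, and together with the CAST/EiJ values given above the difference was 0.61 ± 0.13 (SE; edgeR adjusted p of 0.0396). Gpx8, a peroxidase of the endoplasmic reticulum membrane (ENSMUSG00000021760, chromosome 13, 113042763 to 113046388), went from 54.8, 44.3 and 53.2 CPM to 41.1, 45.8, 39.7 and 43.5 CPM in C57BL/6J and from 43.96, 47.5, 43.1 and 42.8 CPM to 53.8, 53.1, 50.6 and 54.3 CPM in CAST/EiJ. Its difference was 0.51 ± 0.11 (SE; edgeR adjusted p of 0.041). NZO/HlLtJ libraries held 41.7, 34.3, 40.7 and 40.4 CPM and 37.9, 39.9, 42.8 and 37.7 CPM of Gpx8. In edgeR the response in NZO/HlLtJ was not shown to differ from that of either strain for any member. Against C57BL/6J 0 were called and against CAST/EiJ 0, beside 0% and 0.0149% of all genes. At an unadjusted p under 0.05 were 4 and 10 members, beside 791 and 2297 of 20189 genes. DESeq2 called 0 and 2 members (Gpx3 and Prdx3), and its calls over all genes were not counted.

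**Figure D5:**
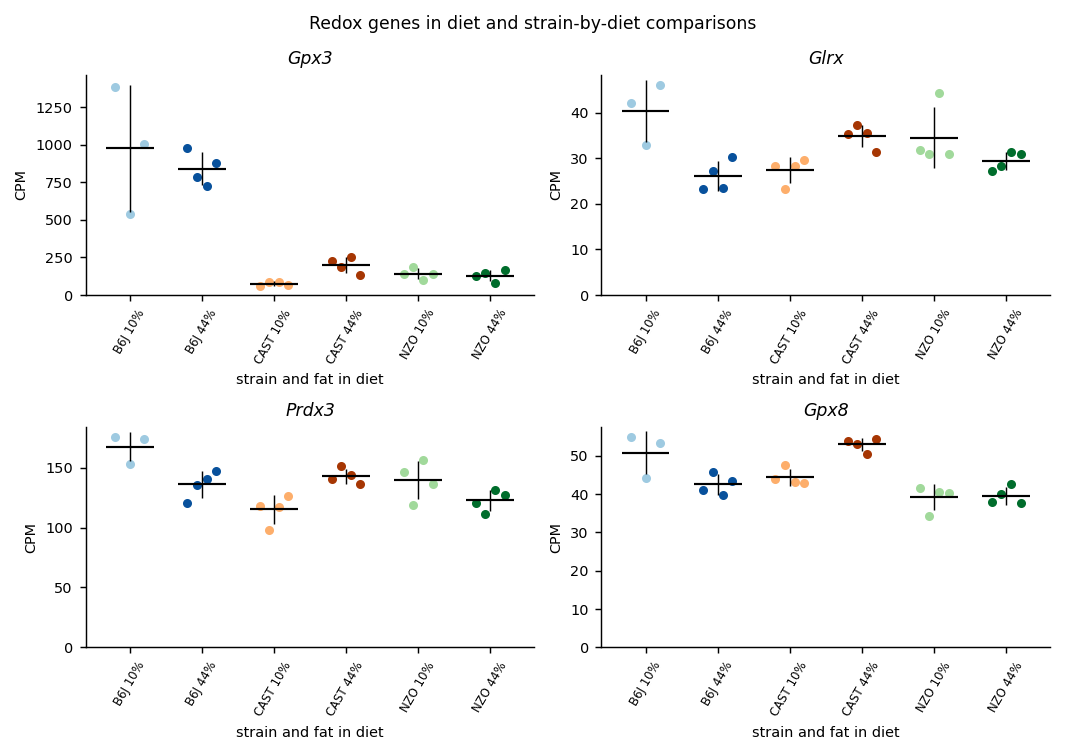
Points are CPM of the libraries in the 6 groups (B6J stands for C57BL/6J), with the group mean (wide bar) and SD (vertical line), for Gpx3 and the 3 genes whose diet response differed between CAST/EiJ and C57BL/6J. Glrx, Prdx3 and Gpx8 have lower means on 44% fat in C57BL/6J and higher ones in CAST/EiJ, and Gpx3 has its 7 highest values in C57BL/6J.

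These 3 calls depended on the libraries used. The call of Glrx was lost in 7 of 30 alternative fits (edgeR adjusted p of up to 0.074), that of Prdx3 in 13 (up to 0.128) and that of Gpx8 in 19 (up to 0.147). The log2 differences themselves stayed between 0.84 and 1.11 for Glrx, 0.49 and 0.68 for Prdx3 and 0.45 and 0.61 for Gpx8 over these fits. All 3 calls were lost with only the groups compared and without both libraries highest in oviduct RNA. Each was also lost without C57BL/6J 10% fat replicate 1 or 3 or C57BL/6J 44% fat replicate 1, 2 or 3. DESeq2 called 7 members (these 3 with Gpx3, Gstk1, Gstp2 and Mgst2), and 5, all positive, were called without C57BL/6J 10% fat replicate 2 or without NZO/HlLtJ 10% fat replicate 3. Calls over all genes were not counted in these fits, so these counts have no background beside them. Macrophage markers moved with this contrast, with 5 of 10 called higher, and of 8 theca and stroma markers 2 were called lower, beside 0.614% of all genes. Luteal markers were positive for 10 of 10 (median 1.34, 0 called). Oviduct markers were positive for 0 of 10 (median -6.06, 0 called, 9 at an unadjusted p under 0.05). The part of these cell types was not tested.

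Of 63 other genes of the pathway (glutathione supply and breakdown, superoxide dismutases and catalase, NRF2 and its partners, NADPH supply, methionine sulfoxide reductases and selenoprotein synthesis), 37 were called between CAST/EiJ and C57BL/6J, 19 higher and 18 lower. Between NZO/HlLtJ and C57BL/6J 3 were higher and 10 lower, and between NZO/HlLtJ and CAST/EiJ 13 and 21. These shares of 58.7%, 20.6% and 54% lay near the 46.8%, 23.9% and 48.1% of all genes tested. Over the 3 strain comparisons the smallest p were those of Glo1, Nnt, Sepw1, Msrb2, Sod3 and Oplah. Their log2 fold changes in CAST/EiJ against C57BL/6J follow. Glo1 (glyoxalase, which uses glutathione to clear methylglyoxal) was at 0.99 and Nnt (the mitochondrial transhydrogenase that makes NADPH) at 1.02. Sepw1 (selenoprotein W) was at -0.60, Msrb2 (a mitochondrial methionine sulfoxide reductase) at -0.72, Sod3 (extracellular superoxide dismutase) at -1.09 and Oplah (which recycles 5-oxoproline) at 0.90. Glo1 was at 195 ± 8.05 CPM in CAST/EiJ, 97.6 ± 6.89 in C57BL/6J and 100.5 ± 4.61 in NZO/HlLtJ (SD, n = 8, 7 and 8). Nnt, of which C57BL/6J is known to carry a deletion, was at 61.2 ± 9.90 CPM in C57BL/6J, 122 ± 17.3 in CAST/EiJ and 95.2 ± 7.45 in NZO/HlLtJ. Between diets 1 of the 63 (1.59%, beside 0.624% of all genes) was called, in CAST/EiJ: Ggt5, a glutathione hydrolase, rose by 0.93 ± 0.21 (SE; edgeR adjusted p of 0.0451); it was picked out after its value was seen.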

How the data were processed

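Ovary RNA of 23 mouse libraries was sequenced as paired 100-base reads with a target of 30 M pairs per library, per the labels' protocols. The deposited matrix holds estimated counts per gene, of which 27.4% are not whole, on GRCm38 per the submitters' processing notes; the aligner, counter, annotation release and use of strand are not given in the sources used here. A deposited variance-stabilised log2 matrix was used for 1 alternative only; the submitters' processing notes name DESeq2. Gene positions were taken from the deposited annotation. Groups came from the labels' strain and diet.

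Counts were rounded, filtered (edgeR filterByExpr, minimum count 10, minimum total 15) and scaled by TMM. edgeR 4.0.16 in R 4.3.3 fitted the means of 6 groups over all 23 libraries with the robust quasi-likelihood test, for 10 comparisons with Benjamini-Hochberg adjustment over 20189 genes and a threshold of 0.05. Each SE came from the log2 fold change and the F statistic (absolute change over root F). Tested on simulated data made for the CAST/EiJ diet comparison with 20189 genes, the fit recovered 32% of genes changed 2-fold and 92% of those changed 4-fold. The simulation gave every gene the same spread (a coefficient of variation of 0.268), whereas real genes differ in spread. Alternatives were DESeq2 1.42.0, scaling by relative log expression, all genes kept without a count filter, a fit to only the groups compared, identifier series as a term, limma 3.58.1 on the variance-stabilised values, no libraries high in oviduct RNA, and each library left out. No replicates were near-duplicates: chi-square per degree of freedom was 11.6 to 203.5 in 33 pairs.

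Values per library are given for members called in a diet or strain-by-diet comparison, the 3 members of smallest p where fewer were called, and members called between strains with an absolute log2 fold change of at least 1 and at least 1 CPM, up to 4 per family. Up to 6 other pathway genes were named by smallest p. The members and all lists were chosen with earlier results of these data known.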

Additional observations from a re-analysis of the deposited data

Results flagged for a closer look

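In 5 of 70 groups tested (14 redox genes, with 4 libraries in each group) 1 library lay apart from the others by Dixon's 95% criterion, which sets the gap to the nearest library against the group's range; chance alone gives about 1 in 20. Glrx, the cytosolic glutaredoxin, stood at 44.4 CPM in NZO/HlLtJ 10% fat replicate 3 and at 30.97 to 31.73 CPM in the other 3 libraries. Gsta1, the alpha-class transferase with many shared reads, stood at 5.06 CPM in CAST/EiJ 44% fat replicate 2 and at 1.18 to 1.73 CPM in the others. NZO/HlLtJ 44% fat replicate 3 lay apart for 3 genes. It held 201.7 CPM of Gstm2 (99.9 to 101.4 in the others), 82.7 CPM of Gstm7 (54.1 to 56.4) and 144.7 CPM of Txn1 (97.7 to 101.6).

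The diet effect in CAST/EiJ differed from that in C57BL/6J for 3 members by the test of the difference itself, with edgeR adjusted p of 0.0238, 0.0396 and 0.041. The differences were 0.98 for Glrx, 0.61 for Prdx3 and 0.51 for Gpx8 on the log2 scale.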

How the results depend on the processing

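No called result reversed direction in an alternative fit. No paired analysis was possible because the labels give no replicate numbers; the identifier series, which hold several libraries each, were fitted as a term and moved no count of members by over 1.5 times. Members called between strains numbered 25 to 31 for CAST/EiJ against C57BL/6J, 12 to 19 for NZO/HlLtJ against C57BL/6J and 23 to 26 for NZO/HlLtJ against CAST/EiJ with single libraries left out. For diet in C57BL/6J, 0 to 4 members were called with single libraries left out (4 without 10% fat replicate 2), and 1 with DESeq2. For diet in CAST/EiJ the range was 0 to 1, with 4 in DESeq2 and 0 with only the groups compared. For the difference of the diet effect between CAST/EiJ and C57BL/6J it was 0 to 5, with 7 in DESeq2, 0 with only the groups compared and 0 without both libraries highest in oviduct RNA. That count was 0 without C57BL/6J 10% fat replicate 1 or 3 or 44% fat replicate 1, 2 or 3. It was 1 without CAST/EiJ 10% fat replicate 1, CAST/EiJ 44% fat replicate 1 or 2, NZO/HlLtJ 10% fat replicate 4 or NZO/HlLtJ 44% fat replicate 1, and 5 without C57BL/6J 10% fat replicate 2 or NZO/HlLtJ 10% fat replicate 3. Between NZO/HlLtJ and CAST/EiJ it was 2 in DESeq2. The cause was not tested. Calls over all genes were not counted in the alternative fits, so a fit that calls more of all genes cannot be told apart here. In the simulated CAST/EiJ diet comparison, which gave every gene the same spread, 32% of 2-fold changes were recovered. The members differ in spread, so that share does not hold for each of them. Small diet effects may have been missed with these libraries.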
